A study of Mus musculus with 8 samples.

Results

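Fatty acid oxidation was followed here through 32 genes chosen by name: 20 whose products work in mitochondria, 9 in peroxisomes and 3 (Crat, Eci2 and Ech1) in both. They are 32 of the 37046 features counted (called genes here), and all 32 passed the filter on low counts. Total RNA depleted of ribosomal RNA was sequenced from white adipose tissue of female wild-type C57BL/6J mice, an inbred laboratory strain, with 4 libraries of a vehicle group that received phosphate-buffered saline (control 1 to 4) and 4 of a group that received 50 mg/kg endostatin (endostatin 1 to 4). Both were injected into the tail vein and tissue was taken 2 h later, with food withheld in between in all mice. Endostatin, a fragment of collagen XVIII, is best known for blocking the growth of blood vessels. Numbers 1 and 2 of each group belong to batch 1 and numbers 3 and 4 to batch 2, as the labels give it. The design text counts 4 mice, which could mean each group or both groups, and which animal gave which library is not in the labels, so the libraries may come from fewer animals than their number. The p-values cover only the spread among these samples, and some of that spread may be technical.

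Mitochondria shorten long-chain fatty acids after the carnitine shuttle has carried them across the inner membrane; each turn of the cycle uses a dehydrogenase, a hydratase, a second dehydrogenase and a thiolase, and hands electrons to the respiratory chain through the electron transfer flavoprotein. Peroxisomes take up very long-chain, branched and dicarboxylic acids through ABC transporters, shorten them with enzymes of their own and pass the products on as carnitine esters. White fat mainly stores and releases fatty acids, and brown fat burns them for heat. Many of these genes are known targets of the fatty acid receptors of the PPAR family.

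The libraries were not alike in makeup. The labels' read file name for endostatin 4 repeats that of endostatin 3, although their values differ (Abcd2 at 410.7 and 608.5 CPM, counts scaled to library size). The labels call the tissue epididymal although the mice are female, and 7 of 10 markers of epididymis and testis were at 0 in all libraries. The 12 adipocyte markers were all detected and had the smallest sum in control 3, 32365 TPM (Salmon's transcript level per length, scaled to the library), and sums of 49730 to 69027 TPM elsewhere. Control 3 and endostatin 4 also stood apart in the sum of oviduct and uterus markers (1091 and 648.3 TPM, against 53.3 to 98.5 TPM elsewhere). Not all of these markers were raised in endostatin 4. Ltf (298.3 TPM) and Wfdc2 (173.7 TPM) were the largest there, and Epcam, Pax8 and Cdh1 were second only to control 3. Ovgp1 was lowest in endostatin 4 (0.72 TPM, against 12.7 TPM in control 3), and Foxj1 and Tekt1 were at 0. Pgr (5.08 TPM) lay below endostatin 1 (11.7 TPM). Skeletal muscle markers were highest in control 1 and control 4 (265 and 508.3 TPM, against 35.7 to 108.7 TPM). Hepatocyte markers ranged from 14.9 TPM in control 3 to 1151 TPM in endostatin 4. Of 9 kidney markers only Lrp2, an endocytic receptor, was high in control 3 (84.2 TPM, against 3.72 to 8.58 TPM elsewhere). In bulk tissue, fewer cells of a type and less RNA per cell cannot be told apart. Total estimated counts were 15826783 to 23786594 per library.

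Endostatin changed none of the 32 genes past the threshold. In edgeR's quasi-likelihood test with batch as a term, no gene at all had an adjusted p under 0.05 (0% of 15184 genes in either direction), and the lowest adjusted p among the 32 was 1.00. An unadjusted p under 0.05 was found for 485 genes, 1 of them among the 32 (Cpt1a, higher; 2.3% of all genes were higher and 0.896% lower at that level). DESeq2 called 4 genes (0.0263%) and limma-voom 0, none of them among the 32. The log2 fold change (endostatin minus control) was below 0 for 27 of the 32, against 53.4% of all genes tested. Its median was -0.10 over the 32, -0.15 over the mitochondrial genes and -0.08 over the peroxisomal genes, beside -0.01 over all genes. For 31 of the 32 the 95% interval included 0, and 30 of the 32 estimates lay within 0.3 of 0. The intervals reached between 0.19 and 1.08 to either side of the estimate. Differences of that size or above could still be missed, because the threshold was on adjusted p. Cpt1a, whose interval excluded 0, did not pass it.

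**Figure D1:**
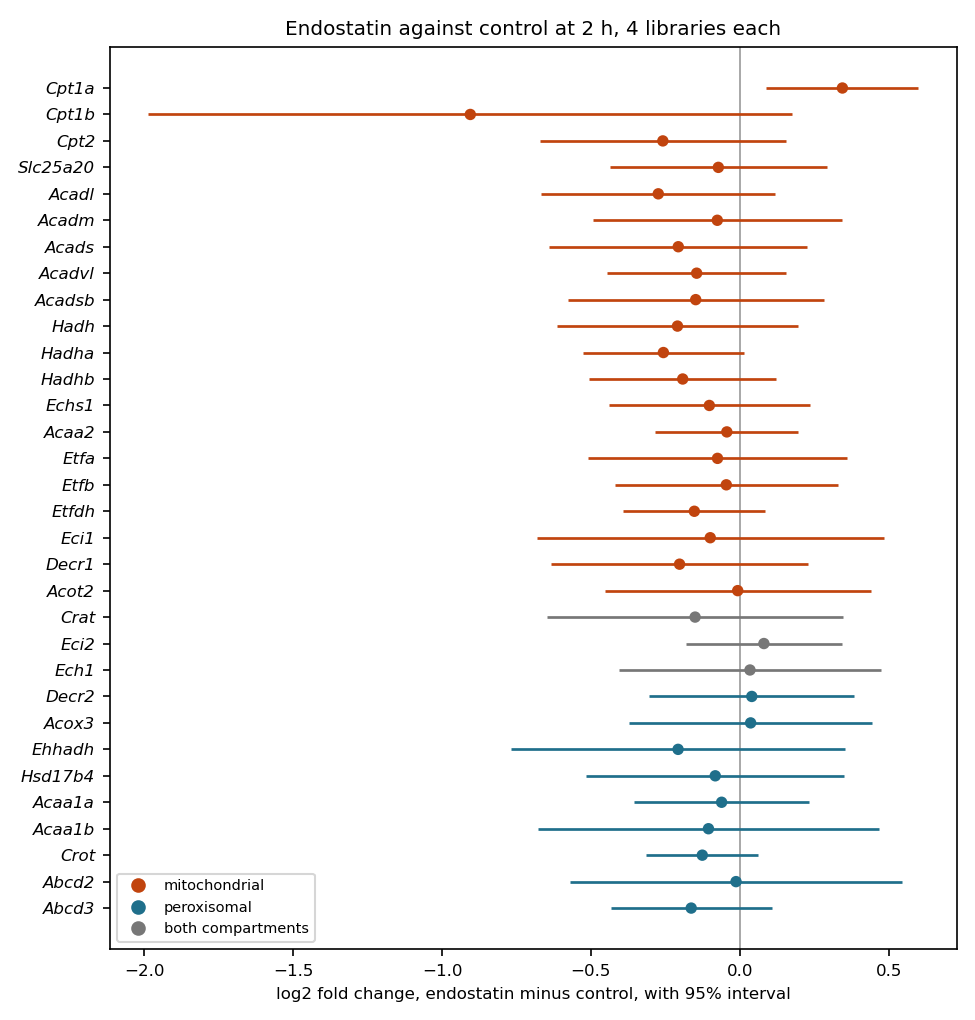
Log2 fold change of each gene, endostatin minus control, with its 95% interval from edgeR's quasi-likelihood fit (horizontal axis); genes are ordered by step, and colour gives the compartment. Cpt1a alone has an interval that excludes 0 (0.09 to 0.60), and Cpt1b has the widest.

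The size of that small shift depended on which control libraries were kept. Its median over the 32 stayed below 0 without any single library other than control 4. Without control 3, the library with the fewest adipocyte transcripts, 31 of the 32 genes were lower after endostatin (49.7% of all genes were), with a median of -0.26. In that fit 18 of the 32 were lower with an unadjusted p under 0.05, against 4.02% of all genes, and 1 (Cpt1a) was higher, against 2.06%; the lowest adjusted p among the 32 was 0.81. Without control 3 and endostatin 4, 31 of the 32 were lower (49.2% of all genes), 19 of them with an unadjusted p under 0.05 (4.07%) and 1, Cpt1a, higher (3.13%). Control 3 had the lowest CPM of all libraries for 25 of the 32, so leaving it out lowers the estimates of those genes by construction. The 32 also moved together, with 30 below their own mean in control 3 and 31 above it in control 4. The counts of 18 and 19 are therefore not counts of independent genes. Without endostatin 4 alone, 28 of the 32 were lower and the median was -0.15. Without control 4, which had the highest adipocyte sum, 15 of the 32 were lower (51.2% of all genes) and the median was 0.01; Cpt1b was lower and Cpt1a higher with an unadjusted p under 0.05 (1.06% and 1.31% of all genes). Without control 1 and control 4 together, 9 of the 32 were lower (50% of all genes were) and the median was 0.08; 1 (Cpt1b) was lower and 0 higher with an unadjusted p under 0.05 (1.38% and 1.34% of all genes). The part of tissue makeup in these shifts was not tested.

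**Figure D2:**
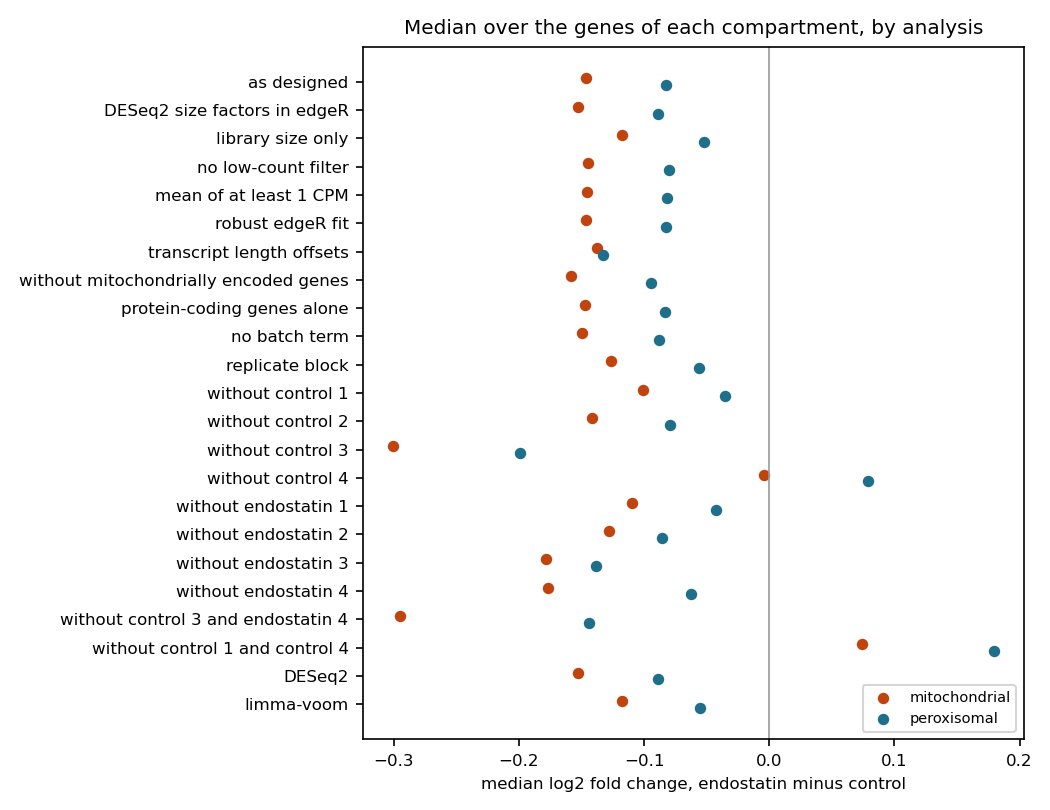
Median log2 fold change, endostatin minus control, over the 20 mitochondrial and 9 peroxisomal genes (horizontal axis) in the main analysis, shown at the top as designed, and in each of 22 alternatives (rows). The mitochondrial median runs from -0.30 without control 3 to 0.07 without control 1 and control 4, and the peroxisomal median from -0.20 to 0.18.

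The carnitine shuttle opens the pathway. Cpt1a (ENSMUSG00000024900) encodes the liver-type carnitine palmitoyltransferase of the outer mitochondrial membrane, the step that controls entry and is held back by malonyl-CoA. Its level was 77.0, 90.8, 79.5 and 83.0 CPM in control 1 to 4 and 97.3, 92.5, 104.4 and 127.2 CPM in endostatin 1 to 4. Every endostatin library lay above every control library in CPM, but not per length: the ranges were 30.5 to 48.2 TPM and 41.5 to 59.1 TPM. Cpt1a was the only one of the 32 whose groups did not overlap in CPM; 0.942% of all genes were separated in this way with higher values and 0.698% with lower values. The group means were 82.6 ± 6.0 and 105.3 ± 15.4 CPM (SD, n = 4), a log2 fold change of 0.34 ± 0.11 (SE; 95% interval 0.09 to 0.60; edgeR's unadjusted p = 0.0146, adjusted p = 1.00). Over the 22 alternatives the estimate stayed between 0.23 and 0.43, and the adjusted p between 0.66 and 1.00. With transcript length offsets it was 0.23 (edgeR's unadjusted p = 0.172, adjusted p = 1.00), and without endostatin 4 it was 0.25. The main estimate was 0.18 in batch 1 and 0.51 in batch 2. Cpt1a is not adipocyte-specific, and macrophage markers, at 836.1 to 1251 TPM in the control group and 1050 to 1861 TPM in the endostatin group, were also highest in endostatin 4 and endostatin 3. Hepatocyte markers were at 14.9 to 164.2 TPM and 23.3 to 1151 TPM, and fibroblast and progenitor markers at 2050 to 3154 TPM and 2468 to 4273 TPM, both highest in endostatin 4. The part of these cells in the Cpt1a values was not tested.

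The bases just before the Cpt1a start site are shown because Cpt1a gave the only groups separated in CPM. They lie at chr19:3323051-3323300 on the plus strand (RefSeq, GRCm38.p6); capitals mark the GC box (GGGCGG or its reverse complement) and the CCAAT box.
Cpt1a: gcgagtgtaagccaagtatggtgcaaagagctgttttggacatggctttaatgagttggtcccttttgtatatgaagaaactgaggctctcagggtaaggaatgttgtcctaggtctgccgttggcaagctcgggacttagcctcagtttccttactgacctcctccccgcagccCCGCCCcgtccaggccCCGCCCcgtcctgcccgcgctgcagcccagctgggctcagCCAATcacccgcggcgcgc
This window held 2 GC boxes and 1 CCAAT box.

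Cpt1b (ENSMUSG00000078937), the muscle-type enzyme of the same step, was the least abundant of the 32 and the most variable. It stood at 2.32, 4.72, 11.8 and 4.06 CPM in control 1 to 4 and 2.41, 1.84, 1.87 and 5.63 CPM in endostatin 1 to 4. Control 3 was the highest library, endostatin 4 was the next, and the groups overlapped. The log2 fold change was -0.91 ± 0.47 (95% interval -1.99 to 0.18; edgeR's unadjusted p = 0.0895, adjusted p = 1.00), and without control 3 it was -0.50. Cpt1b also gave the largest batch estimate of the 32, 0.99 ± 0.47 (edgeR's adjusted p = 0.54). That estimate was 0.57 without control 3 and 0.03 without control 3 and endostatin 4.

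Markers of other tissues that use Cpt1b also differed between libraries, but not all in those where Cpt1b was highest. Ucp1, the uncoupling protein of brown fat, reached 91.8 TPM in control 3 and 20.8 TPM in endostatin 4; the other 6 libraries had 0 to 7.40 TPM. Dio2, which activates thyroid hormone in brown fat, was at 21.9 TPM in control 3, 4.04 TPM in endostatin 4 and 0.26 to 1.47 TPM elsewhere. Cox8b, a brown fat respiratory subunit, was highest in control 3 too (311.1 TPM), but endostatin 4 (211.5 TPM) lay below control 4 and control 2 (242 and 217.1 TPM). All 6 brown fat markers together summed to 170.2 to 528.4 TPM in the control group and 80.7 to 276.4 TPM in the endostatin group, with 276.4 TPM in endostatin 4 and 296.7 TPM in control 4; 1 of them, Ucp1, was at 0 in 1 library. Ckm, the creatine kinase of skeletal muscle, reached 35.1 TPM (control 1) and 57.0 TPM (control 4), with 0.08 to 3.40 TPM elsewhere; Cpt1b stood at 2.32 and 4.06 CPM in those libraries. Cpt1b made up 34.7% of the summed TPM of Cpt1a and Cpt1b in control 3 and 3.37% to 12.6% in the other 7 libraries.

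**Figure D3:**
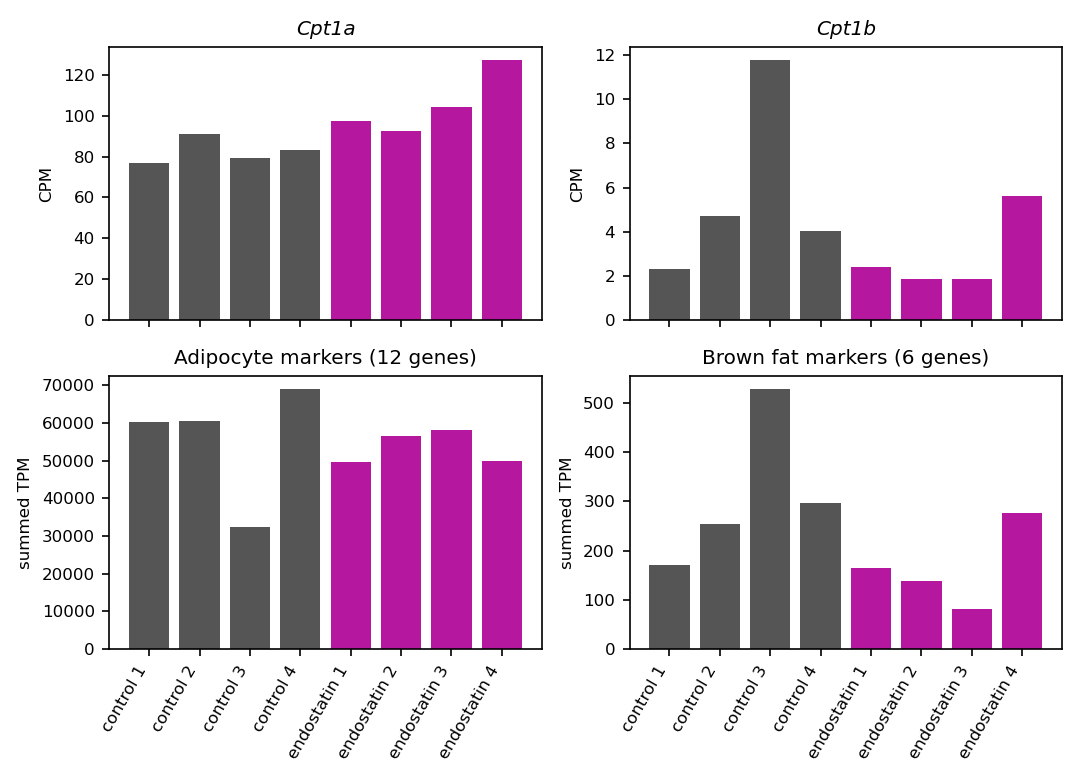
Bars give each library's value (grey, control; magenta, endostatin): Cpt1a and Cpt1b in CPM above, and the summed TPM of 12 adipocyte and 6 brown fat markers below. Cpt1a is higher in all 4 endostatin libraries, and Cpt1b is highest in control 3, where adipocyte markers are lowest and brown fat markers highest.

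Cpt2, which turns acylcarnitines back into acyl-CoA inside the mitochondrion, stood at 155.8, 155.3, 80.4 and 152.5 CPM in control 1 to 4 and 123.6, 123.4, 99.8 and 105.2 CPM in endostatin 1 to 4. Control 3 lay below all 4 endostatin libraries and the other 3 controls above them. The log2 fold change was -0.26 ± 0.18, and -0.44 without control 3 (edgeR's unadjusted p = 0.000914, adjusted p = 0.81). Slc25a20, the carnitine-acylcarnitine carrier of the inner membrane, stood at 63.0, 77.8, 47.8 and 61.7 CPM in control 1 to 4 and 53.3, 60.7, 52.5 and 69.9 CPM in endostatin 1 to 4. The groups overlapped, and control 2 was highest. Its log2 fold change was -0.30 in batch 1 and 0.16 in batch 2.

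The acyl-CoA dehydrogenases catalyse the first oxidation of each cycle, and each prefers a different chain length. All 5 had estimates below 0, from -0.27 (Acadl, long chain) to -0.08 (Acadm, medium chain), and none passed the test. Acadl stood at 238.7, 268.3, 156.8 and 255.7 CPM in control 1 to 4 and 175.5, 192.6, 180.5 and 208.3 CPM in endostatin 1 to 4. Its 3 control libraries other than control 3 lay above every endostatin library. Its log2 fold change was -0.27 ± 0.17 (95% interval -0.67 to 0.12; edgeR's unadjusted p = 0.146, adjusted p = 1.00), and -0.45 without control 3. Acads, the short-chain enzyme, had -0.21 ± 0.19. Acadvl, the very long-chain enzyme, had 163.0 ± 12.6 TPM (SD, n = 8) over all libraries.

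Acadsb, the short and branched chain enzyme that also serves isoleucine breakdown, had rank 4 of 32 at 310.3 ± 44.0 TPM over all 8 libraries. It stood at 341.6, 340.1, 179.8 and 324.7 CPM in control 1 to 4 and 269.1, 270.6, 269.2 and 249.9 CPM in endostatin 1 to 4. Control 3 was far below the other 3 controls, and the 4 endostatin libraries lay between. Of its counts, 27.2% ± 2.1 (SD, n = 8) fell on transcripts that GENCODE M21 types as protein coding. A transcript typed as retaining an intron, Acadsb-207, took 61.4% ± 2.2. Counting protein-coding transcripts alone put Acadsb at 44.1 TPM, rank 23 of 32.

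The Acadm promoter window was the only one of 26 with the sequence AAGGTCA, an extended binding element of orphan nuclear receptors, on either strand. Its bases at chr3:153944877-153944893 (minus strand, RefSeq, GRCm38.p6) are shown with the element, read on the opposite strand, in capitals.
Acadm: gTGACCTTcgggctccg
Of all 32851 promoter windows of the same length (300 bases), 4.72% held AAGGTCA, against 3.85% of the 26. The PPAR element, 2 copies of AGGTCA with 1 base between, which can overlap AAGGTCA, was in 0 of 26 and in 0.0396% of all windows. GC boxes were in 20 of 26 (76.9%, against 35.7% of all windows) and CCAAT boxes in 11 of 26 (42.3%, against 37.4%). All windows include those of non-coding genes, and these matches describe letters only.

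The hydratase, dehydrogenase and thiolase steps followed the dehydrogenases, with 5 of 5 estimates below 0. Hadha (ENSMUSG00000025745) and Hadhb (ENSMUSG00000059447) encode the alpha and beta subunits of the mitochondrial trifunctional protein, which carries out the last 3 reactions on long chains. Hadha stood at 313.4, 294.8, 231.2 and 316.4 CPM in control 1 to 4 and 251.0, 268.2, 219.6 and 229.8 CPM in endostatin 1 to 4. As for Acadl, the controls other than control 3 lay above every endostatin library. The log2 fold change was -0.26 ± 0.12 (95% interval -0.53 to 0.01; edgeR's unadjusted p = 0.0602, adjusted p = 1.00), with -0.23 in batch 1 and -0.29 in batch 2. Hadhb stood at 272.7, 279.7, 193.4 and 296.8 CPM in control 1 to 4 and 233.7, 243.8, 219.0 and 215.7 CPM in endostatin 1 to 4, with control 3 lowest. Its log2 fold change was -0.19 ± 0.14.

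The ratio of Hadha to Hadhb in CPM was 1.00 to 1.20 in all 8 libraries. Their start sites lie 273 bases apart and point away from each other, so a single stretch of DNA precedes both genes. It is shown on the Hadhb strand (chr5:30155003-30155252, plus strand, RefSeq, GRCm38.p6), with its 2 GC boxes in capitals.
Hadhb: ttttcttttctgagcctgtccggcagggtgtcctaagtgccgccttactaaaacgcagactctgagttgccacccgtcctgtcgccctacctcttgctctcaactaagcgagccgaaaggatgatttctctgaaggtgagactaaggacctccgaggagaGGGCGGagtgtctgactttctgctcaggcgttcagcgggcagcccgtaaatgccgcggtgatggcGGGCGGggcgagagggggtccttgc
Of the Hadha counts, 58.6% ± 2.8 (SD, n = 8) fell on Hadha-201, a transcript of 2552 bases that M21 does not type as protein coding, and 37.3% ± 2.9 on the protein-coding Hadha-205. The share of Hadha-201 was 58.4% ± 1.5 in the control group and 58.9% ± 4.0 in the endostatin group.

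Hadh, the short-chain hydroxyacyl-CoA dehydrogenase, had 289.6 ± 69.9 and 249.7 ± 27.1 CPM. Echs1, the short-chain hydratase, had 247.4 ± 51.0 and 229.6 ± 9.5 CPM. Acaa2, the mitochondrial thiolase, stood at 100.5, 94.2, 86.8 and 110.2 CPM in control 1 to 4 and 82.0, 94.5, 99.3 and 105.3 CPM in endostatin 1 to 4. The groups overlapped throughout, and the estimate was the nearest to 0 of the 5, a log2 fold change of -0.04 ± 0.10 (95% interval -0.28 to 0.20).

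The electron transfer flavoprotein passes electrons from the dehydrogenases to ubiquinone. Etfb, its beta subunit, was the most abundant of the 32 (529.4 ± 77.9 TPM over all 8 libraries), and its partner Etfa stood at 259.9 ± 38.4 TPM. In CPM, Etfb stood at 180.4, 179.5, 129.6 and 224.6 in control 1 to 4 and 166.8, 162.5, 186.6 and 177.0 in endostatin 1 to 4. The groups overlapped, with both the lowest and the highest library among the controls. Etfb was 1.79 to 2.31 times Etfa per length in every library. Etfdh, the membrane oxidoreductase that receives the electrons, stood at 76.3 to 89.4 TPM, the smallest spread of the 32 relative to its mean TPM; in CPM that gene was Crot. Log2 fold changes were -0.05 ± 0.16, -0.08 ± 0.19 and -0.15 ± 0.10 for Etfb, Etfa and Etfdh.

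Unsaturated fatty acids need auxiliary enzymes. Eci1, the mitochondrial enoyl-CoA isomerase, stood at 105.7, 122.9, 65.8 and 123.6 CPM in control 1 to 4 and 77.8, 93.2, 83.6 and 137.0 CPM in endostatin 1 to 4. Within batch 1 both endostatin libraries lay below both controls, and in batch 2 endostatin 4 was the highest library of all. The batch by treatment term was 0.64 ± 0.48 (edgeR's unadjusted p = 0.224, adjusted p = 1.00). Decr1, the mitochondrial dienoyl-CoA reductase, had 165.6 ± 43.1 and 143.5 ± 8.4 CPM. Acot2, a mitochondrial thioesterase, stood at 43.5, 28.4, 20.7 and 32.7 CPM in control 1 to 4 and 29.1, 39.2, 27.8 and 27.9 CPM in endostatin 1 to 4. Control 1 and endostatin 2 were its highest libraries; its counts are uncertain because the closely similar Acot1 can share its reads.

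**Figure D4:**
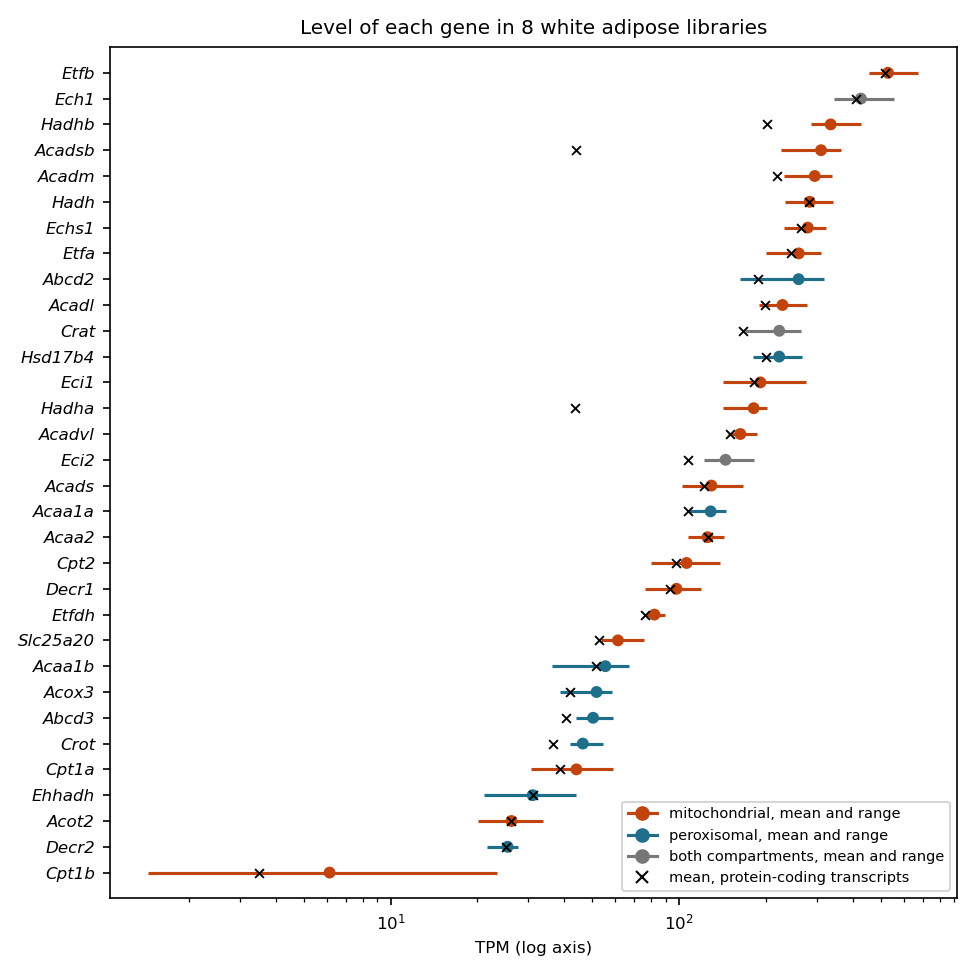
Level of each gene in TPM on a log axis: points are means and lines the range over the 8 libraries, coloured by compartment, and crosses are means over transcripts typed as protein coding. Levels run from Cpt1b (6.14 TPM) to Etfb (529.4 TPM), and the crosses of Acadsb and Hadha fall far below their points.

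The 3 genes whose products are found in both compartments were Crat, which moves acetyl groups onto carnitine, Eci2, a second enoyl-CoA isomerase, and Ech1, a dienoyl-CoA isomerase. Ech1 was second of the 32 in level at 426.7 ± 64.2 TPM. In CPM it stood at 272.2, 285.2, 177.4 and 286.5 in control 1 to 4 and 218.1, 256.8, 252.8 and 318.0 in endostatin 1 to 4. The groups overlapped, with the lowest value in control 3 and the highest in endostatin 4. Eci2 stood at 97.6, 91.1, 75.0 and 102.8 CPM in control 1 to 4 and 91.9, 92.2, 99.1 and 104.9 CPM in endostatin 1 to 4. It overlapped as well, with the same libraries at the ends. Log2 fold changes were -0.15 ± 0.22, 0.08 ± 0.11 and 0.03 ± 0.19 for Crat, Eci2 and Ech1; all 3 were below 0 in batch 1 and above 0 in batch 2.

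Among the peroxisomal enzymes, Hsd17b4, the D-bifunctional protein that hydrates and oxidises the chain, was the most abundant (222.2 ± 26.6 TPM over all 8 libraries). Its relative Ehhadh, the L-bifunctional protein, was at 31.1 ± 7.4 TPM. Ehhadh was also the most variable of the 9 relative to its level, with 54.6, 76.1, 30.3 and 62.0 CPM in control 1 to 4 and 55.7, 45.5, 37.1 and 52.4 CPM in endostatin 1 to 4. The groups overlapped, and control 2 was highest. Decr2, the peroxisomal dienoyl-CoA reductase, and Acox3, an acyl-CoA oxidase for branched chains, had estimates just above 0 (0.04 ± 0.15 and 0.04 ± 0.18). Decr2 stood at 32.7, 30.0, 22.2 and 34.3 CPM in control 1 to 4 and 27.5, 33.0, 32.05 and 29.9 CPM in endostatin 1 to 4. Acox3 stood at 68.9, 83.6, 47.0 and 82.4 CPM in control 1 to 4 and 66.0, 75.7, 71.3 and 75.2 CPM in endostatin 1 to 4. For both, control 3 was the lowest library and the groups overlapped. Without control 3 the estimates were -0.11 and -0.15. Crot, which makes octanoylcarnitine for export, stood at 83.4, 72.3, 75.1 and 76.6 CPM in control 1 to 4 and 76.8, 74.5, 68.5 and 62.6 CPM in endostatin 1 to 4. Control 3 was not low for Crot. It had a log2 fold change of -0.13 ± 0.08 (95% interval -0.31 to 0.06).

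The peroxisomal thiolases Acaa1a and Acaa1b are close paralogues, so reads can be split between them. In CPM, Acaa1a stood at 132.5, 105.9, 107.3 and 140.9 in control 1 to 4 and 111.2, 119.8, 130.7 and 104.7 in endostatin 1 to 4, and Acaa1b at 52.8, 53.5, 26.3 and 59.1 in control 1 to 4 and 35.7, 48.0, 43.6 and 50.3 in endostatin 1 to 4. Both overlapped between the groups. Per length, Acaa1a was at 128.6 ± 12.5 TPM and Acaa1b at 55.5 ± 10.5 TPM over all 8 libraries. Acaa1b made up 21.9% of the pair in control 3 and 26.8% to 37.0% in the other 7 libraries, with group means of 30.0% ± 6.3 (control) and 30.1% ± 3.9 (endostatin). Control 3 was the lowest library for Acaa1b but not for Acaa1a. The promoters of the pair are shown because the genes differed in how much they varied between libraries, with GC and CCAAT boxes in capitals on either strand: Acaa1a at chr9:119341044-119341293 (plus strand) and Acaa1b at chr9:119157094-119157343 (minus strand), both from RefSeq, GRCm38.p6.
Acaa1a: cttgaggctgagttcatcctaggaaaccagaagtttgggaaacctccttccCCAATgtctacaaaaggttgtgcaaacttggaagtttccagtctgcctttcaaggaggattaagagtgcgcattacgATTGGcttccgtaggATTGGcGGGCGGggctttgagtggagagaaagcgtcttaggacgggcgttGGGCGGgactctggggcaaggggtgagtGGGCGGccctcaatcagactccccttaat
Acaa1b: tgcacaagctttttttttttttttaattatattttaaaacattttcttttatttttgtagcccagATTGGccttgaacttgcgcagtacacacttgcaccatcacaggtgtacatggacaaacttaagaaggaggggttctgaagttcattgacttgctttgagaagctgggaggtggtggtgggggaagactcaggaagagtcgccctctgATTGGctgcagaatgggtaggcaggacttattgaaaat
Acaa1a held 3 GC boxes and 3 CCAAT boxes, and Acaa1b 0 and 2. G and C made up 53.6% of the Acaa1a window and 41.6% of the Acaa1b window.

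Of the peroxisomal transporters, Abcd2, which imports very long-chain acyl-CoA, stood above Abcd3, which imports branched and dicarboxylic acids, in every library. Abcd2 stood at 784.3, 623.0, 340.0 and 703.5 CPM in control 1 to 4 and 717.8, 697.6, 608.5 and 410.7 CPM in endostatin 1 to 4. The lowest library of each group was the one with the group's highest sum of oviduct and uterus markers, control 3 and endostatin 4. Other lists were also highest of their group in control 3 and endostatin 4. Among them were brown fat (528.4 and 276.4 TPM), endothelium (469.2 and 479.1 TPM), fibroblasts and progenitors (3154 and 4273 TPM) and mesothelium (307.9 and 406.6 TPM). Which of these cells, if any, bear on Abcd2 was not tested. Per length, Abcd2 was at 259.5 ± 58.6 TPM, or 188.3 TPM over protein-coding transcripts alone, and Abcd3 at 50.3 ± 5.9 TPM. Abcd3 made up 23.7% of the pair in control 3, 19.5% in endostatin 4 and 12.9% to 16.6% elsewhere. The endostatin estimates were -0.01 ± 0.24 for Abcd2 and -0.16 ± 0.12 for Abcd3.

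The proportion of peroxisomal to mitochondrial transcripts did not separate the groups. The 20 mitochondrial genes summed to 3840 ± 494 TPM in the control group and 3629 ± 219 TPM in the endostatin group, and the 9 peroxisomal genes to 890.5 ± 137.1 and 851.1 ± 44.1 TPM. The peroxisomal share of both sums was 19.5%, 18.9%, 18.0% and 18.8% in control 1 to 4 and 20.8%, 19.6%, 19.0% and 16.8% in endostatin 1 to 4. The groups overlapped, with means of 18.8% ± 0.6 and 19.1% ± 1.7 (SD, n = 4). The difference was 0.27 percentage points, smaller than the SD of either group, with 1.00 in batch 1 and -0.47 in batch 2. Without Abcd2 the share spanned 13.4% to 14.9%.

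Control 3 was the library that moved both compartments most. It had the lowest CPM of all libraries for 25 of the 32 genes, against 21.1% of all genes tested, and 30 of the 32 lay below their own mean there. The median deviation in control 3 was -0.41 (log2) over the mitochondrial and -0.56 over the peroxisomal genes, whereas in the other 7 libraries medians lay between -0.15 and 0.27. Relative to the adipocyte markers control 3 was highest: the 32 genes summed to 139.8 TPM per 1000 TPM of markers there, 113.8 in endostatin 4 and 90.2 to 100.0 in the other 6 libraries.

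**Figure D5:**
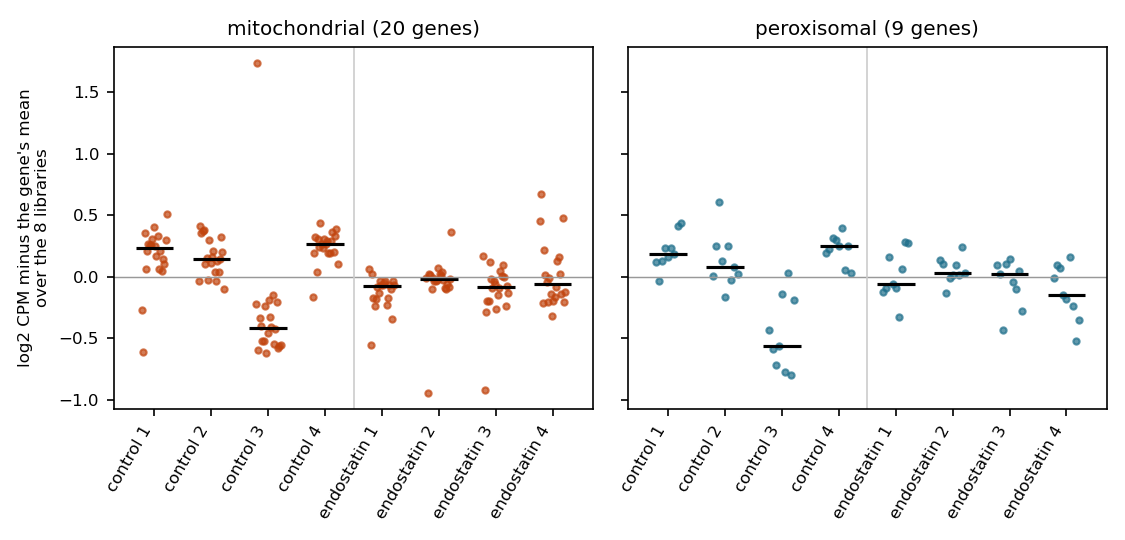
Each point is a gene's log2 CPM minus its own mean over the 8 libraries (vertical axis), for the 20 mitochondrial and 9 peroxisomal genes in each library; black bars are medians. Control 3 lies lowest in both panels (medians -0.41 and -0.56), and its high point among the mitochondrial genes is Cpt1b.

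None of the 32 genes passed the test between batches. In edgeR's test of batch 2 against batch 1, 1 gene was higher and 5 were lower (0.00659% and 0.0329% of 15184), none of them among the 32; DESeq2 called 171 genes (1.13%) and limma-voom 10, also none of the 32. An unadjusted p under 0.05 was found for 1 of the 32, Abcd3, lower in batch 2 (4.54% of all genes were lower and 5.42% higher at that level). The estimate was below 0 for 24 of the 32, against 47.9% of all genes. Abcd3 had the smallest p: 111.2, 83.4, 99.1 and 83.9 CPM in the batch 1 libraries (control 1 and 2, endostatin 1 and 2) and 71.8, 83.8, 67.6 and 64.2 CPM in the batch 2 libraries (control 3 and 4, endostatin 3 and 4). The batches overlapped in control 2 and control 4. Its log2 difference was -0.40 ± 0.12 (edgeR's unadjusted p = 0.00947, adjusted p = 0.48). Abcd2 had -0.45 ± 0.24, Acot2 -0.36 ± 0.19 and Cpt2 -0.34 ± 0.18 (edgeR's adjusted p = 0.559, 0.560 and 0.555). Without control 3 these were -0.28, -0.23 and -0.17, and 11 of the 32 batch estimates changed sign.

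The endostatin estimates were below 0 for 30 of the 32 genes in batch 1 (49.4% of all genes) and for 16 in batch 2 (53.2%), with medians of -0.22 and 0.01. The test of that difference, the batch by treatment term, called no gene in edgeR (0% of 15184 in either direction); 527 genes had an unadjusted p under 0.05, none of them among the 32, and DESeq2 called 28 (0.184%) and limma-voom 0, none of the 32. The term was above 0 for 26 of the 32, against 47.8% of all genes, with a median of 0.18. Without control 3 the median was -0.11, and without control 4 it was 0.60, so its sign rested on which batch 2 control was kept.

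Other genes of fatty acid breakdown also held no call in the endostatin comparison. Of 33 further catabolic genes 26 had estimates below 0, with a median of -0.07; among them Acsl3, an acyl-CoA synthetase, had 13.2 ± 2.9 and 10.1 ± 0.7 CPM (-0.39 ± 0.18) and Acot13, a thioesterase, 15.5 ± 2.0 and 12.8 ± 1.9 CPM (-0.28 ± 0.15; -0.80 with transcript length offsets, edgeR's adjusted p = 1.00). Bdh1, a dehydrogenase of ketone body metabolism, had 1.15 ± 0.31 and 2.15 ± 1.75 CPM (0.83 ± 0.56; 1.24 with transcript length offsets), with 4.66 CPM in endostatin 4 against 0.77 to 2.02 CPM in the other 7 libraries. It is expressed in liver, and endostatin 4 had the highest hepatocyte sum; the part of hepatocyte RNA was not tested.

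Of 12 regulators 8 had estimates below 0. Esrra, a nuclear receptor that drives oxidative genes, had 44.5 ± 11.7 and 27.4 ± 15.6 CPM (-0.72 ± 0.51), with 5.85 CPM in endostatin 4 against 26.6 to 57.1 CPM elsewhere. Prkaa2, a catalytic subunit of AMP-activated kinase, had -0.21 ± 0.18, Sirt3, the mitochondrial deacetylase, 0.11 ± 0.11, and Rxra, the partner receptor of the PPARs, 0.12 ± 0.13. None of these intervals excluded 0.

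Of 13 tested PPAR targets outside the 32, 10 had estimates above 0, with a median of 0.29, and none passed. Cyp4a14 and Cyp4a10, fatty acid hydroxylases of liver and kidney, had the smallest p among those with a mean of at least 1 CPM. Cyp4a14 stood at 0.71, 0.18, 0.11 and 0 CPM in control 1 to 4 and 1.23, 2.56, 0 and 18.2 CPM in endostatin 1 to 4 (edgeR's unadjusted p = 0.048, adjusted p = 1.00). The values follow the hepatocyte sums of the endostatin libraries, which were 380, 592.7, 23.3 and 1151 TPM; their part was not tested. Fabp3, a fatty acid binding protein of heart and muscle, had -0.68 ± 0.35, and Ucp3, an uncoupling protein of muscle, -0.16 ± 0.20.

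Peroxins, which build peroxisomes, and 3 other peroxisomal proteins made up a list of 18 genes. Of these, 16 had estimates below 0, with a median of -0.08 and a highest estimate of 0.03 (Pex6, below 0 with transcript length offsets). Pex26, an anchor of the receptor recycling complex, had 23.8 ± 3.3 and 20.01 ± 1.92 CPM (-0.24 ± 0.11), and Pex2, a subunit of its ubiquitin ligase, 25.6 ± 2.1 and 22.9 ± 2.0 CPM (-0.16 ± 0.10). Pex5, the import receptor for peroxisomal enzymes, had 121.2 ± 28.2 and 121.5 ± 16.2 CPM; its estimate of 0.00 changed sign with the scaling.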

How the data were processed

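Salmon quantified each library, and the genome build is GRCm39, per the submitters' processing notes. Its version and index are not given in the sources here. The deposited values are estimated counts per transcript and TPM, both made by the authors with Salmon, per the file headers. Of 115620 transcripts, 113710 (98.35%) matched GENCODE M21 (GRCm38) by identifier without version and were summed per gene. The other 1910 were kept, each as a feature of its own. Together these made 37046 features, all called genes here. Unmatched transcripts that passed the filter are among all genes tested. Because the builds differ, gene coordinates are not given; promoter windows come from RefSeq (GRCm38.p6), where 26 of the 32 genes matched by symbol.

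Estimated counts were rounded and filtered with filterByExpr, leaving 15184 genes, scaled by TMM and tested with edgeR 4.0.16 (R 4.3.3; quasi-likelihood, batch plus treatment, Benjamini-Hochberg adjustment over all genes, threshold 0.05); a second model added the batch by treatment term. CPM compare libraries within a gene and TPM compare genes. DESeq2 1.42.0, limma-voom (limma 3.58.1), other scalings, filters and feature sets, and fits without single libraries were alternatives. The procedure was checked on simulated data. A count of 3, the floor, equals 0.126 to 0.19 CPM. Members and lists were chosen with earlier results of these data known. Genes given in full were those with the smallest unadjusted p per comparison and direction (up to 4, mean of at least 1 CPM), the 4 highest and 4 lowest in TPM, and paralogue pairs; of other lists, up to 2 per direction, of which 1 gene is not reported here.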

Additional observations from a re-analysis of the deposited data

Results flagged for a closer look

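Within each group of 4 libraries, 66 sets of values were checked for a library far from the other 3 (the gap to the nearest library, divided by the range, above Dixon's critical value); 6 were found, and chance gives about 1 in 20. Control 3 was the low library for 3 of them: Cpt2 (80.4 CPM, gap over range 0.956), Acadsb (179.8 CPM, 0.896) and Ech1 (177.4 CPM, 0.87). Endostatin 4 was lowest of its group for Acadsb (249.9 CPM, 0.926) and highest for Cpt1b (5.63 CPM, 0.85). Endostatin 2 was highest of its group for Acot2 (39.2 CPM, 0.889).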

How the results depend on the processing

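None of the 32 genes was called in any comparison under the 22 alternatives for endostatin or the 20 for batch and interaction. DESeq2 called 3 genes higher and 1 lower after endostatin, and 22 higher and 6 lower for the interaction. Between batches, genes called higher and lower numbered 85 and 86 with DESeq2, 2 and 8 with limma-voom, 0 and 2 with library size only, 0 and 3 for protein-coding genes alone, 3 and 24 without control 3 and endostatin 4, and 0 and 0 without control 1 and control 4; 4 were higher with no filter. Leaving out single libraries gave 0 to 2 higher and 0 to 16 lower (16 without endostatin 4). Library size only moved the batch median of all genes from 0.01 to 0.13 and that of the 32 from -0.11 to -0.01.

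The interaction medians were -0.10 (all 32) and -0.11 (mitochondrial) without control 3 and endostatin 4, and 0.55, 0.55 and 0.48 (all, mitochondrial, peroxisomal) without control 1 and control 4. Without single libraries they ran from -0.11 to 0.60, -0.083 to 0.58 and -0.11 to 0.58. Shares of TPM put 14.3% of Acadsb and 24.1% of Hadha on protein-coding transcripts.

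Of the 32 endostatin estimates, none of which passed a test, 4 changed sign without control 3 and endostatin 4 (Eci2, Decr2, Acox3 and Ech1), 12 without control 4 and 18 without control 1 and control 4; without control 3, 24 others moved by over 1.5 times. Among genes given in full, signs turned without control 3 and endostatin 4 for Eci2 (-0.045), Decr2 (-0.071), Acox3 (-0.14), Pex6 (-0.14), Pex5 (-0.25) and the Eci1 interaction (-0.14). Without control 1 and control 4 they also turned for Prkaa2 (0.042), Ucp3 (0.19), Etfb between batches (-0.064) and the Hadha interaction (0.15). Length offsets gave Pex6 -0.00897 and Pex5 -0.063; Pex5 was -0.00467 with DESeq2 size factors, -0.00464 with DESeq2 and -0.011 without mitochondrially encoded genes. Without single libraries the ranges were -0.041 to 0.15 (Eci2), -0.11 to 0.16 (Decr2), -0.15 to 0.18 (Acox3), -0.12 to 0.12 (Pex6), -0.19 to 0.14 (Pex5), -0.10 to 0.21 (Etfb between batches), and, for the interaction, -0.37 to 0.044 (Abcd3), -1.35 to 0.60 (Cpt1b) and -0.27 to 0.19 (Hadha). The cause was not tested.

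Deviations from the group means of same-numbered libraries had r = 0.211, 0.144, -0.0732 and -0.295, within the -0.377 to 0.363 of differently numbered libraries. With a single r for each pair, these values cannot decide whether the numbers pair the libraries. With the replicate block 0 genes were called and the median of the 32 was -0.09. With 4 libraries a group, Cpt1b, at 1.84 to 11.8 CPM, was the least precise.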
